A study of Mus musculus with 15 samples.

Results

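The apelin receptor gene Aplnr, the gene of its ligand Apln and 8 genes of vascular endothelium (Kdr, Flt1, Emcn, Tek, Pecam1, Cdh5, Nos3 and Vwf) were followed in 15 RNA sequencing libraries from mouse hearts. They were found by gene symbol, 10 of the 54532 genes in the deposited expression table, and all 10 were among the 13396 genes with enough signal to be tested. Aplnr was chosen because an earlier pass over these data had listed it among the genes lowest with donepezil against saline. Its level in that comparison is therefore a description with no test, and the other 9 members are described there in the same way. In the donepezil libraries Aplnr was lower by 2.88-fold, Apln by 1.85-fold, Kdr by 1.61-fold and Emcn by 1.53-fold than in the saline libraries, while Pecam1, Cdh5, Tek, Flt1, Nos3 and Vwf differed by at most 1.12-fold.

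All hearts came from wild-type C57BL/6 mice with a stated age of 8 to 10 weeks. All mice had transverse aortic constriction (TAC), a banding of the aorta that loads the left ventricle with pressure and leads to heart failure. Survivors at 4 weeks after banding were randomised to groups of 15 that drank saline, donepezil at 5 mg/kg/day or encenicline (EVP-6124) at 2 mg/kg/day, and the libraries are labelled as 8 weeks of TAC. The stated age is therefore not read as the age at collection. Donepezil slows the breakdown of acetylcholine by blocking acetylcholinesterase. Encenicline activates the α7 nicotinic receptor. The study asked which of these routes acts better in the failing heart. No heart without TAC is among the groups, so every difference is between banded hearts. Each group has 5 libraries. Whether every library is 1 mouse is not stated in the labels, and p-values measure the spread between these libraries.

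For 2 libraries the labels disagree: the library titled donepezil 1 has saline in its treatment field, and that titled encenicline 1 has donepezil. Groups follow the titles, and several results that rest on these libraries are also given without them. The levels relative to other genes of the same library, the correlations and the likeness ranks are not. The libraries held 14496147 to 17176086 reads, of which 17.42 to 27.03% were mitochondrial. Library donepezil 4 stood apart, with 25893 genes above 0 against 19489 to 20667 in the others, and with the highest sums of 10 fibroblast markers (1396.5 FPKM against 728 to 970) and 10 macrophage markers (553 FPKM against 231 to 468). FPKM is the read count of a gene scaled by its length and by the reads of the library. Of the labelled tissue's own genes, 10 cardiomyocyte markers summed to 14545.0 to 23423.4 FPKM. All 24 further pan-endothelial markers were expressed, with summed levels of 495 to 662 FPKM.

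Apelin is a small secreted peptide that acts through a G protein-coupled receptor on endothelial cells, where it promotes vessel growth and nitric oxide release, and on heart muscle, where it raises contraction. VEGF-A, made largely by the muscle cells around the capillaries, signals through the receptor encoded by Kdr, while the receptor encoded by Flt1 binds the same ligand tightly and signals weakly. Tek encodes the Tie receptor for angiopoietins, Emcn a sialomucin on capillary and venous endothelium, Pecam1 and Cdh5 adhesion proteins at endothelial junctions, Nos3 the endothelial nitric oxide synthase and Vwf the von Willebrand factor of haemostasis. ETS factors, which bind around the core GGAA, are the common regulators of endothelial genes.

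Promoter sequences from RefSeq (GRCm38.p6) were matched for 5 of the members, and these 5 are shown. The log2 difference of donepezil from saline was -0.89, -0.68 and -0.61 for Apln, Kdr and Emcn, against 0.15 for Flt1 and -0.13 for Tek. Whether the sequences bear on these differences was not tested. Each is the 160 bases just upstream of the gene, 5′ to 3′ on the gene's strand, with every GGAA or its reverse complement TTCC in capitals.
Apln: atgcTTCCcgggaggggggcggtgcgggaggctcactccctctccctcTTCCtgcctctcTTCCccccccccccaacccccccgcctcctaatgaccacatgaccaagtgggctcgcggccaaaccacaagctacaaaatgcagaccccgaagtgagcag
Kdr: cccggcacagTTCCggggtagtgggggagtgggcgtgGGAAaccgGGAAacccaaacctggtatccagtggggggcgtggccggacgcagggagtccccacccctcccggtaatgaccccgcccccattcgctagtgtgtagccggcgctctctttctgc
Emcn: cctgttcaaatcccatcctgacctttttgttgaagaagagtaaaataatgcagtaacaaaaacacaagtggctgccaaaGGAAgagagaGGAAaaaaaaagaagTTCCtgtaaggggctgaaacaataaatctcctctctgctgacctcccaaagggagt
Flt1: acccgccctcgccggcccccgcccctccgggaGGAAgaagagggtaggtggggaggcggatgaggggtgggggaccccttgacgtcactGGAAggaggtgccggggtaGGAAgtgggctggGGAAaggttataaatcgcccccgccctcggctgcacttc
Tek: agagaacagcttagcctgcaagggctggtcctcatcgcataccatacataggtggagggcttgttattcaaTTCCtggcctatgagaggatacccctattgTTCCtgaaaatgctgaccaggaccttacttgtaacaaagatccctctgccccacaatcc
The stretches lie at chrX:48034854-48035013 (minus strand) for Apln, chr5:75978459-75978618 (minus strand) for Kdr, chr3:137340907-137341066 (plus strand) for Emcn, chr5:147726012-147726171 (minus strand) for Flt1 and chr4:94739129-94739288 (plus strand) for Tek. They differed most in base composition. Apln, Kdr and Flt1 had 65.0, 67.5 and 68.8% GC with 7, 12 and 11 CpG pairs, while Emcn had 41.2% GC and 0 CpG and Tek 48.8% GC and 1 CpG. Over the 250 bases upstream the ETS core occurred 3 times in Apln, 4 times in Kdr, Emcn and Flt1 and 2 times in Tek, counting both strands. That core is held by 93.4% of all 32851 such windows, with a median of 3 sites, so its presence sets none of the 5 apart. The Flt1 stretch holds TGACGTCA, the full cyclic AMP response element, found in 1.55% of windows on either strand, and TATAAA, found in 12.4%. Neither of these was found in the other 4 windows. None of the 5 windows held ACGTG, 1 form of the hypoxia core, which 16.6% of all windows hold. The form GCGTG was not counted, and the Kdr stretch holds it. These matches describe letters and not bound sites.

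Aplnr (ENSMUSG00000044338, chromosome 2, 85136225 to 85139923, GRCm38) varied more between libraries than any other member, by 9.9-fold from the lowest to the highest library and with a coefficient of variation of 55.0%, against 9.74 to 39.4% for the other 9. In saline libraries 1 to 5 it stood at 10.8, 29.1, 19.9, 21.3 and 10.9 FPKM. In donepezil libraries 1 to 5 it stood at 4.59, 2.94, 5.53, 9.96 and 7.22 FPKM. In encenicline libraries 1 to 5 it stood at 9.76, 14.5, 14.4, 13.1 and 13.0 FPKM. All 5 donepezil libraries lay below the lowest saline library, though donepezil 4, at 9.96 FPKM, came close to it, and the saline libraries themselves split into a pair at 10.8 and 10.9 and 3 between 19.9 and 29.1 FPKM. Group means were 18.4 ± 7.71 FPKM in saline libraries, 6.05 ± 2.68 in donepezil libraries and 13.0 ± 1.93 in encenicline libraries (SD, n = 5 each). The log2 difference of donepezil from saline was -1.53 (SE 0.29), and it was -1.46 without donepezil 1 and encenicline 1 and -1.72 without donepezil 4. With the groups of the treatment field it was -1.03. These values rest on 162 to 1616 reads per library.

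Apln (ENSMUSG00000037010, chromosome X), the ligand, was less abundant than its receptor on average and was also lowest with donepezil. Saline libraries 1 to 5 held 5.18, 8.17, 7.69, 9.46 and 4.64 FPKM, and donepezil libraries 1 to 5 held 5.45, 2.38, 2.76, 2.69 and 4.81 FPKM. Encenicline libraries 1 to 5 held 4.29, 3.68, 5.33, 4.72 and 6.02 FPKM. The groups overlapped: 3 of the 5 donepezil libraries lay below every saline library, and donepezil 1 and donepezil 5 lay within the saline range. Means were 7.03 ± 2.05, 3.62 ± 1.41 and 4.81 ± 0.906 FPKM for saline, donepezil and encenicline (SD, n = 5 each). The log2 difference of donepezil from saline was -0.89 (SE 0.22), and it was -1.04 without donepezil 1 and encenicline 1.

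Kdr (ENSMUSG00000062960, chromosome 5) and Flt1 (ENSMUSG00000029648, chromosome 5) encode the receptors that share VEGF-A. Kdr was lower with donepezil than with saline, and Flt1 showed no clear difference. Kdr stood at 28.9, 35.2, 40.3, 39.7 and 34.4 FPKM in saline libraries 1 to 5 and at 26.9, 18.1, 21.6, 15.6 and 30.5 FPKM in donepezil libraries 1 to 5. In encenicline libraries 1 to 5 it stood at 21.7, 30.7, 31.8, 23.5 and 30.6 FPKM. Of the donepezil libraries 4 lay below every saline library, and donepezil 5 lay inside the saline range. The log2 difference of donepezil from saline was -0.68 (SE 0.17) for Kdr and 0.15 (SE 0.14) for Flt1, whose means were 16.7 ± 2.88, 18.6 ± 3.14 and 17.5 ± 2.89 FPKM for saline, donepezil and encenicline (SD, n = 5 each). Within each library, log2 Kdr minus log2 Flt1 averaged 1.08 ± 0.41 with saline, 0.25 ± 0.39 with donepezil and 0.65 ± 0.32 (SD, n = 5 each) with encenicline. In donepezil 2 Kdr was below Flt1, with a log2 difference of -0.18, and in the other 14 libraries it was above.

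Emcn (ENSMUSG00000054690, chromosome 3) had the smallest standard error of the 4 lower members and separated the donepezil libraries from both other groups. Saline libraries 1 to 5 held 8.89, 9.2, 10.6, 9.43 and 11.3 FPKM. Donepezil libraries 1 to 5 held 6.37, 5.07, 7.18, 6.38 and 6.57 FPKM. Encenicline libraries 1 to 5 held 10.4, 9.98, 8.95, 10.5 and 8.89 FPKM. Every donepezil library lay below every saline and every encenicline library, and the saline and encenicline ranges overlapped. The log2 difference of donepezil from saline was -0.61 (SE 0.09), and it was -0.61 without the 2 libraries whose labels disagree. With the groups of the treatment field it was -0.38, and the donepezil and saline groups then overlapped.

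**Figure D1:**
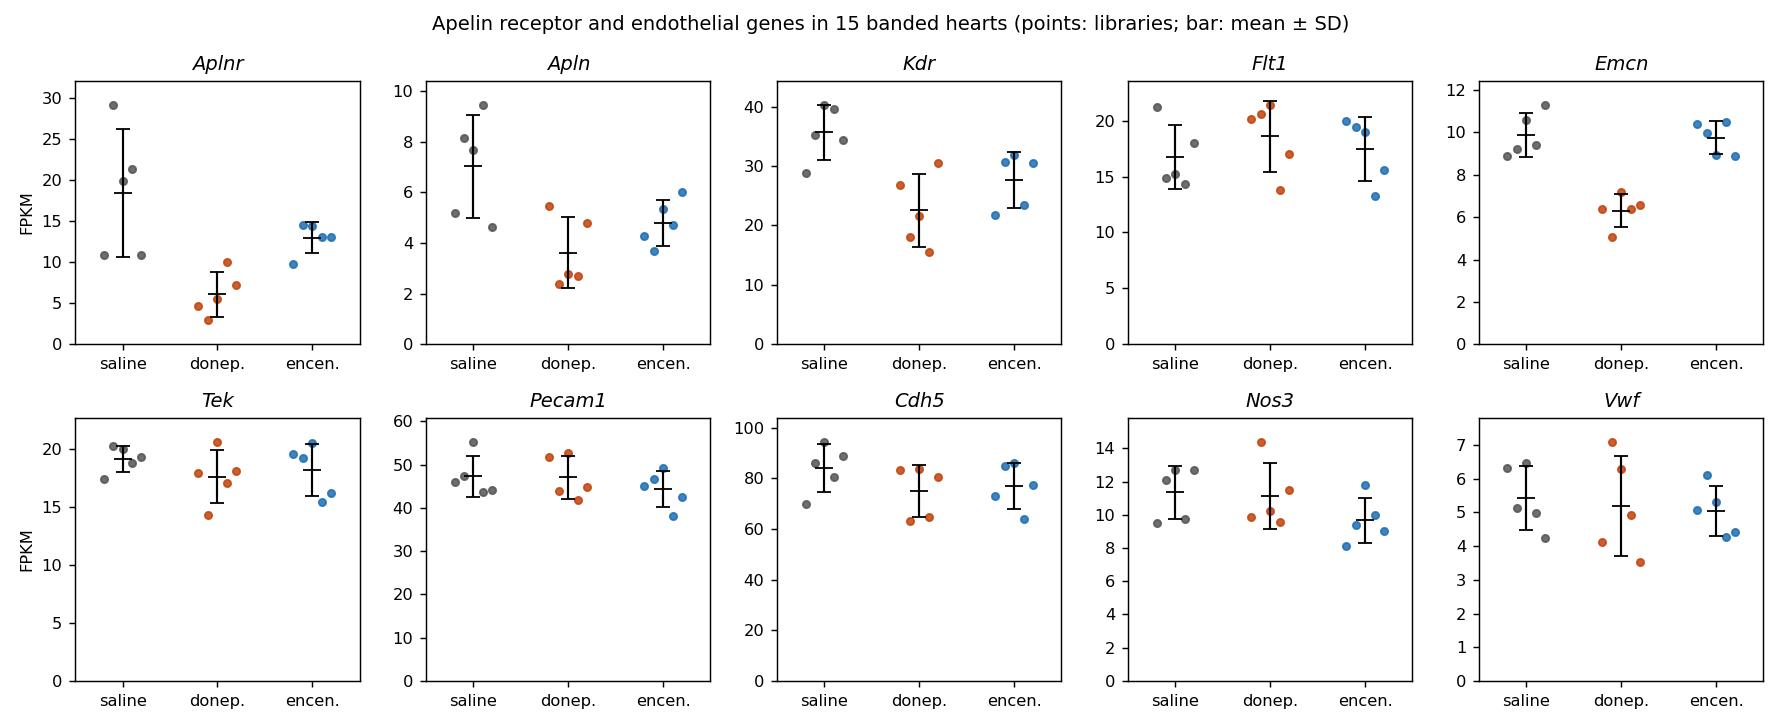
FPKM of the 10 genes in each library, in a panel per gene with the vertical axis starting at 0; points are libraries, and bars give the mean ± SD of 5 libraries given saline, donepezil (donep.) or encenicline (encen.). The donepezil points of Aplnr and Emcn lie below all saline points, whereas those of Pecam1, Tek and Cdh5 overlap them.

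The other endothelial members showed no such gap. Pecam1 had 47.3 ± 4.71, 47.0 ± 4.92 and 44.3 ± 4.17 FPKM for saline, donepezil and encenicline (SD, n = 5 each), a log2 difference of donepezil from saline of -0.01 with a 95% interval of -0.2 to 0.18. Cdh5 had 84.0 ± 9.39, 75.0 ± 10.2 and 77.1 ± 9.17 FPKM, with a log2 difference of -0.17 and an interval of -0.4 to 0.07. Tek had 19.1 ± 1.12, 17.6 ± 2.28 and 18.2 ± 2.24 FPKM, with a log2 difference of -0.13 and an interval of -0.34 to 0.08. For these 3 genes the ranges of the groups overlapped.

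Nos3 had 11.3 ± 1.6, 11.1 ± 1.98 and 9.67 ± 1.35 FPKM for saline, donepezil and encenicline (SD, n = 5 each), a log2 difference of donepezil from saline of -0.03 with an interval of -0.3 to 0.23. Vwf had 5.43 ± 0.955, 5.19 ± 1.49 and 5.03 ± 0.74 FPKM, with a log2 difference of -0.08 and an interval of -0.43 to 0.26. Genes on the opposite strand overlap Cdh5 (Gm29682) and Nos3 (Atg9b and Gm15587), but these held at most 2, 32 and 17 reads in any library.

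Over all genes tested, 284 of 13396, or 2.12%, passed the test of donepezil against saline (limma with Benjamini-Hochberg adjusted p under 0.05), 158 higher and 126 lower. Lower calls made up 0.941% of genes tested. Higher calls made up 1.18%. No call is given for the 10 members, since Aplnr was chosen from this comparison. The donepezil libraries lay below all saline libraries for 2 members, Aplnr and Emcn, and for 1.79% of all genes tested, and nothing is read from that count. Over 22 alternative settings the log2 difference ran from -1.72 to -1.03 for Aplnr, from -1.04 to -0.78 for Apln, from -0.8 to -0.56 for Kdr and from -0.71 to -0.38 for Emcn. With single libraries left out it ran from -1.72 to -1.32 for Aplnr. The values of -1.03 for Aplnr and -0.38 for Emcn came with the groups of the treatment field.

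**Figure D2:**
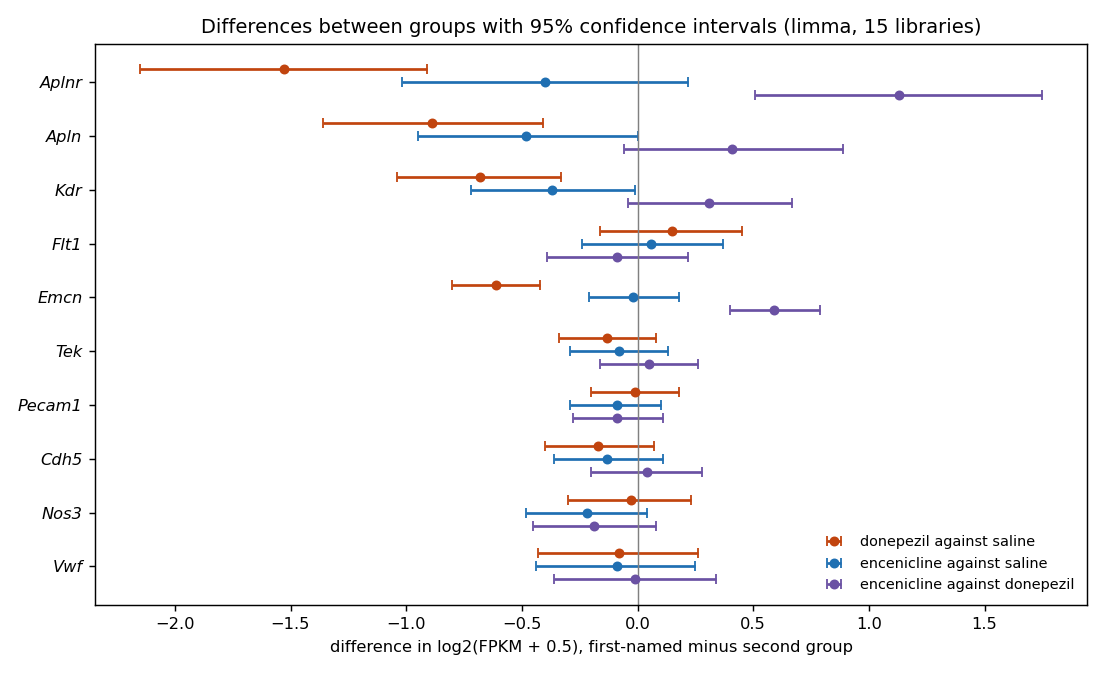
Difference in log2(FPKM + 0.5) of each gene in the 3 comparisons, the group named first minus the second, with 95% confidence intervals from limma on 15 libraries. Aplnr was chosen from donepezil against saline, so the intervals of that comparison are descriptions and not tests. Aplnr, Apln, Kdr and Emcn lie farthest below 0 for donepezil against saline, at -1.53, -0.89, -0.68 and -0.61, and Emcn against saline is near 0 for encenicline (-0.02).

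Encenicline against saline, a comparison that did not choose the genes but shares the saline libraries with the one that did, showed no change past the test. None of the 10 members passed, and 0 genes of 13396, or 0.0%, passed overall (limma with Benjamini-Hochberg adjustment). Before adjustment 1235 genes had a p under 0.05, and limma voom on the recovered reads also called 0. Apln had a log2 difference of -0.48 (SE 0.22, limma adjusted p = 0.537), Kdr had a log2 difference of -0.37 (SE 0.17, limma adjusted p = 0.536) and Aplnr one of -0.40 (SE 0.29, limma adjusted p = 0.677). The Aplnr interval ran from -1.02 to 0.22, so these libraries allow a lower level as well as none. Of the encenicline libraries 1 of 5 lay below every saline library for Aplnr, 2 for Apln and 2 for Kdr. Without donepezil 1 and encenicline 1 the Aplnr log2 difference was -0.3, and with the groups of the treatment field it was -0.01. Emcn differed by -0.02 (interval -0.21 to 0.18), and the other 6 members had log2 differences between -0.22 for Nos3 and 0.06 for Flt1.

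Encenicline against donepezil placed the drugs side by side, given at 2 and 5 mg/kg/day. Emcn was higher with encenicline by 1.51-fold (log2 0.59, SE 0.09, limma adjusted p = 0.0061), with all 5 encenicline libraries above all 5 donepezil libraries. It was the 1 member that passed of the 9 tested, against 0.933% of all genes, or 125 of 13396, with 0.44% higher and 0.493% lower. Of all genes tested 2.0% had every encenicline library above every donepezil library. The Emcn call held with each single library left out. It ended without donepezil 1 and encenicline 1 (log2 0.57, limma adjusted p = 0.0566), with TPM scaling and with the groups of the treatment field. Since these donepezil libraries are also those in which Emcn was low against saline, the comparisons are not independent.

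Aplnr was higher with encenicline than with donepezil by 2.18-fold (log2 1.13, SE 0.29), given as a description, with 4 of 5 encenicline libraries above every donepezil library. Apln had a log2 difference of 0.41 (SE 0.22, limma adjusted p = 0.402) and Kdr one of 0.31 (SE 0.17, limma adjusted p = 0.395), and neither passed. The remaining 6 members had log2 differences between -0.19 for Nos3 and 0.05 for Tek, and none passed.

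In whole heart RNA, fewer endothelial cells and less RNA of a gene per cell cannot be told apart. As a further description, the members were set against 24 pan-endothelial genes measured in the same library. The mean log2 level of those 24 genes was 4.22 ± 0.12 with saline, 4.06 ± 0.12 with donepezil and 4.09 ± 0.10 (SD, n = 5 each) with encenicline, with overlapping ranges. Relative to that mean, Aplnr stood at -0.09 ± 0.59 with saline, -1.45 ± 0.61 with donepezil and -0.35 ± 0.17 with encenicline on the log2 scale. The shift between donepezil and saline was -1.36 on this relative scale and -1.53 unscaled. On the relative scale donepezil 4, at -0.54, reached the level of saline 1, and saline 5 lay below both at -0.82. The 24 genes include Myct1, Podxl and S1pr1, which themselves passed for donepezil against saline. Whether cell number or RNA per cell differed was not tested.

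On the same relative scale Emcn lay lower in every donepezil library than in any other library, at -0.85 ± 0.08 with saline, -1.3 ± 0.12 with donepezil and -0.73 ± 0.19 (SD, n = 5 each) with encenicline. Kdr stood at 0.95 ± 0.14, 0.43 ± 0.29 and 0.71 ± 0.18, and Apln at -1.36 ± 0.42, -2.08 ± 0.40 and -1.7 ± 0.26. Cdh5 stayed at 2.17 ± 0.05, 2.17 ± 0.08 and 2.18 ± 0.11. Within the library, log2 Emcn minus log2 Pecam1 was -2.33 to -1.92 with saline, -3.0 to -2.62 with donepezil and -2.39 to -1.82 with encenicline.

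**Figure D3:**
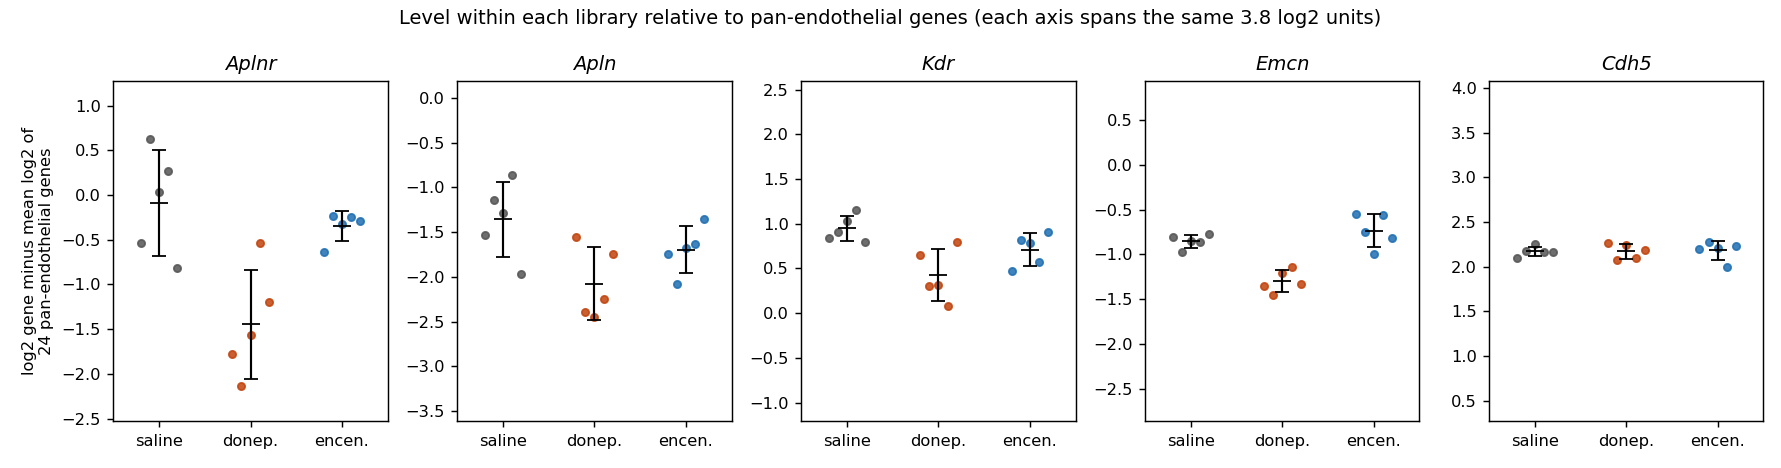
Log2 level of 5 genes minus the mean log2 level of 24 pan-endothelial genes in the same library; points are libraries, bars the mean ± SD of 5, and every panel spans the same range of log2 units. Aplnr, Apln, Kdr and Emcn sit lower with donepezil than with saline, and Cdh5 stays between 2.0 and 2.28 in all libraries.

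Ordered by mean FPKM over the 15 libraries, Cdh5 (78.7) was followed by Pecam1 (46.2), Kdr (28.6), Tek (18.3), Flt1 (17.6), Aplnr (12.5), Nos3 (10.7), Emcn (8.65), Vwf (5.22) and Apln (5.15). Cdh5 lay above Pecam1 and Pecam1 above Kdr in all 15 libraries. Tek lay above Flt1 in 9 of 15, so these neighbours do not differ beyond their spread. The place of Aplnr differed between groups. Aplnr lay above Nos3 in 4 of 5 saline and 5 of 5 encenicline libraries but in 1 of 5 donepezil libraries. By group mean it came between Tek and Flt1 with saline, between Flt1 and Emcn with encenicline, and between Emcn and Vwf with donepezil. Apln lay above Vwf in 4 of 5 saline libraries, and Vwf lay above Apln in 3 of 5 donepezil and 2 of 5 encenicline libraries.

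With group means removed, the members' levels were compared across the 15 libraries in 17 pairs, Aplnr with each other member and Apln with each endothelial one. Aplnr and Flt1 ran in opposite directions (Pearson r = -0.70, permutation p = 0.0077; Spearman rho = -0.71, permutation p = 0.00564). Adjusted over the 17 pairs by Benjamini-Hochberg, these permutation p-values were 0.124 and 0.0959, so the relation did not pass. Without donepezil 2 and saline 2, the libraries farthest from the median of Aplnr, r was -0.73. Apln and Kdr ran together (r = 0.70, permutation p = 0.0146, adjusted 0.124; rho = 0.66, permutation p = 0.0173, adjusted 0.147), with r = 0.68 without those 2 libraries. Aplnr and its ligand Apln had r = 0.44 (permutation p = 0.178, adjusted 0.546) and rho = 0.48 (permutation p = 0.143, adjusted 0.5), and r fell to 0.23 without the same libraries. None of the 17 pairs passed.

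Among 10220 protein-coding genes averaging 1 FPKM or more, those whose log2 levels followed Aplnr most closely over the 15 libraries were Tnfsf10 (Pearson r = 0.903), Glis2 (0.902), Six5 (0.898), Cxxc5 (0.896), Rrad (0.893), Psmb8 (0.89), Myct1 (0.888) and Arhgap18 (0.886). Apln ranked 142 with r = 0.736, Emcn 114 with 0.755 and Kdr 291 with 0.659, whereas Flt1 ranked 9716 with -0.606. These values share the group difference by which Aplnr was chosen and the scaling of each library. With group means removed the closest were Rrad (0.884), Pofut1 (0.878), Coq8b (0.876), Zfp608 (0.854), Neurl3 (0.853), Pcdhgc3 (0.852), Ptgir (0.843) and Ext1 (0.823), and Apln ranked 1073. Rrad, a small GTPase that restrains calcium channels in heart muscle, is the gene on both lists. It stood at 51.3 to 103.0 FPKM with saline, 16.8 to 57.3 with donepezil and 65.9 to 124.0 with encenicline.

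The other genes of the apelin system showed no change past the test in any comparison. Of 13 described here, 12 were tested, and the gene of the other receptor ligand, Apela, was listed at 0 in all 15 libraries. Furin, which cuts proapelin to its active form, had 14.7 ± 2.42 FPKM with saline and 21.2 ± 3.18 with donepezil (SD, n = 5 each; log2 0.52, limma adjusted p = 0.0675). Mme, whose enzyme neprilysin cleaves apelin, had a log2 difference of -0.15 in the same comparison (limma adjusted p = 0.657). The median over the 12 was -0.07 for donepezil against saline and -0.08 for encenicline against saline, while the median of all genes was near 0.

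Of the 8 other VEGF ligands and receptors none passed in any comparison, and 6 of 8 were lower with donepezil than with saline, with a median log2 difference of -0.29. With limma voom on the recovered reads 1 of the 8 fell past the test for donepezil against saline. Vegfa, the ligand of Kdr and Flt1, had 55.0 ± 13.2 FPKM with saline and 35.7 ± 10.1 with donepezil (SD, n = 5 each; log2 -0.63, limma adjusted p = 0.089). The coreceptors Nrp1 and Nrp2 had log2 differences of -0.36 and -0.46 (limma adjusted p = 0.201 and 0.0769). Of the 5 tested genes of the angiopoietin and Tie list, 11 of endothelial junctions and 11 of Notch signalling, none passed in any comparison.

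Of the 24 pan-endothelial genes, 18 were lower and 6 higher with donepezil than with saline, with a median log2 difference of -0.19 (-0.26 with TPM scaling). With TPM scaling the median of all genes was -0.069. Past the test were 3 of the 24 genes, against 2.12% of all genes tested, and they moved both ways. The gene lists were chosen with earlier results of these data known, which limits what the list calls can show. Myct1, a membrane protein of endothelial cells, fell from 12.1 to 16.2 FPKM with saline to 5.96 to 9.57 with donepezil (log2 -0.83, SE 0.11, limma adjusted p = 0.00209). Podxl, the sialomucin podocalyxin, fell from 44.1 to 57.5 FPKM to 32.4 to 42.3 (log2 -0.50, SE 0.10, limma adjusted p = 0.0146). S1pr1, a sphingosine phosphate receptor that steadies the vessel wall, rose from 29.5 to 45.4 FPKM to 43.6 to 61.3 (log2 0.64, SE 0.12, limma adjusted p = 0.0144). For Myct1 and Podxl the groups did not overlap, and for S1pr1 donepezil 4 lay inside the saline range.

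The 11 listed genes of capillary endothelium lay mostly the other way from the lower members, although Emcn, a lower member, is also a capillary gene. Of the 11, 9 were higher with donepezil than with saline, and 2, Tcf15 and Meox2, were lower. The median log2 difference was 0.42 (0.34 with TPM scaling). Past the test 2 rose and 1 fell, where 1.18% of all genes tested were higher calls and 0.941% lower. Gpihbp1, which carries lipoprotein lipase to the capillary lumen, rose from 49.8 ± 5.05 to 70.5 ± 9.29 FPKM (SD, n = 5 each; log2 0.49, limma adjusted p = 0.0367). Car4, a carbonic anhydrase on the capillary surface, rose from 20.3 ± 4.34 to 33.1 ± 6.15 FPKM (log2 0.70, limma adjusted p = 0.0358). Tcf15, which in mouse heart endothelium acts with Meox2 on fatty acid uptake genes, fell from 69.2 ± 8.45 to 47.5 ± 8.55 FPKM (log2 -0.55, limma adjusted p = 0.0364). The fatty acid carriers Cd36 and Fabp4 each had a log2 difference of 0.42 (limma adjusted p = 0.0933 and 0.0538), and heart muscle also makes Cd36. With encenicline against saline 9 of the 11 were higher, with a median of 0.12, but TPM scaling turned that median to -0.05, with 3 higher. The median of all genes was then -0.135.

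**Figure D4:**
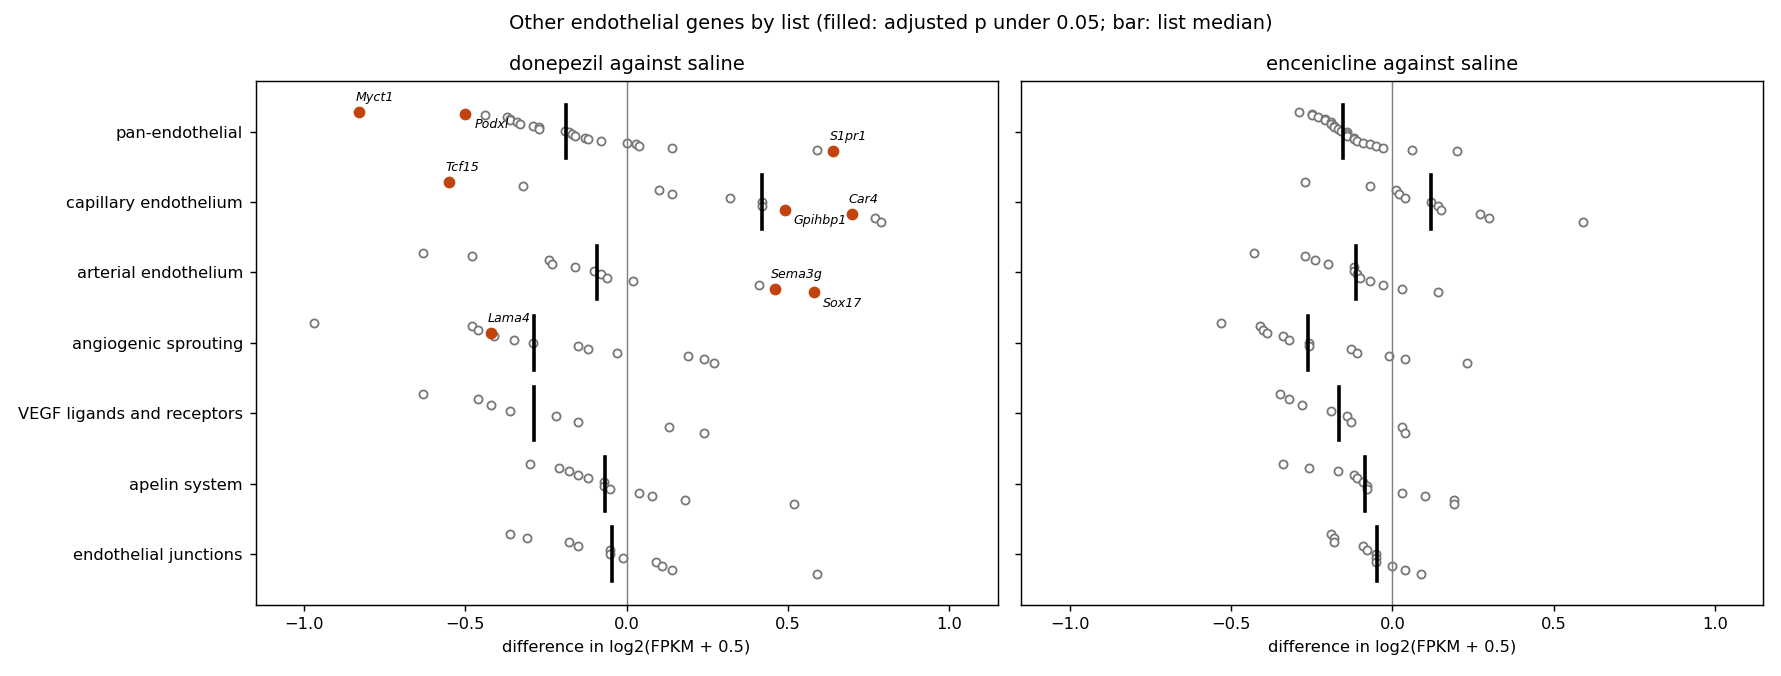
Log2 differences of the tested genes of 7 lists, donepezil against saline on the left and encenicline against saline on the right; filled points passed the test at an adjusted p under 0.05 over all genes, open points did not, and bars give the median of each list. The capillary list lies to the right for donepezil with a median of 0.42 and the pan-endothelial list to the left with -0.19, and no point is filled for encenicline.

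Other vascular lists gave few calls for donepezil against saline, where 1.18% of all genes tested were higher calls and 0.941% lower. Of 12 arterial genes 2 rose, the transcription factor Sox17 from 6.63 ± 1.51 to 10.1 ± 2.0 FPKM (SD, n = 5 each; log2 0.58, limma adjusted p = 0.0405) and the semaphorin Sema3g from 10.3 ± 1.55 to 14.3 ± 2.0 (log2 0.46, limma adjusted p = 0.0465). Of 13 genes of angiogenic sprouting 1 fell, Lama4, a laminin chain of the vascular basement membrane (log2 -0.42, limma adjusted p = 0.0465). TPM scaling ended the calls of Sox17, Sema3g and Lama4, and scaling without mitochondrial genes and limma voom each ended those of Sema3g and Lama4. Of 12 genes of the nitric oxide pathway 1 fell, Nos2, the inducible synthase, from 3.96 ± 0.716 to 2.37 ± 0.448 FPKM (log2 -0.63, limma adjusted p = 0.0253).

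Pf4, listed here as a platelet marker, fell from 23.1 ± 5.05 FPKM with saline to 12.7 ± 2.59 FPKM with donepezil (SD, n = 5 each; log2 -0.83, limma adjusted p = 0.0341). Platelets also carry the product of Vwf, but of 6 platelet markers Pf4 alone made up nearly the whole summed level, which was 17.6 to 29.4 FPKM with saline, 11.1 to 17.3 with donepezil and 12.6 to 25.9 with encenicline. Ppbp had 0.644 ± 0.381 FPKM with saline and 0.499 ± 0.332 with donepezil, Itga2b 0.259 ± 0.0698 and 0.263 ± 0.141 (SD, n = 5 each), Gp6 and Gp9 were at or near 0, and Gp1bb was listed at 0 in all libraries. The cell source of Pf4 and the part of platelet RNA in the Vwf values were not tested. No gene of the tested venous, endocardial, lymphatic, pericyte, smooth muscle, cardiomyocyte, fibroblast or macrophage lists passed in any comparison. With limma voom on the recovered reads 1 pericyte gene fell past the test for donepezil against saline.

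Of the 11 list genes described here as called for donepezil against saline, Myct1, Podxl and S1pr1 kept their call with each single library left out. The other 8 did not: leaving out saline 2, saline 4, donepezil 2 or donepezil 3 ended all 8 calls, saline 3 ended 7, donepezil 1 ended 6, donepezil 5 ended 4, saline 5 ended 3, donepezil 4 ended 2 and saline 1 ended 1. Their adjusted p then reached at most 0.116 (Sema3g). Without donepezil 1 and encenicline 1, 2 of the 11 calls held, Myct1 (limma adjusted p = 0.0135) and Nos2 (limma adjusted p = 0.0483), and 9 ended. The limma adjusted p-values of those 9 ran from 0.0563 for Pf4, 0.0582 for both Podxl and S1pr1 and 0.06 for Tcf15 to 0.125 for Lama4. With the groups of the treatment field 0 of the 11 calls held, and with only the 10 libraries compared 1 did, Myct1.

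Between the drugs, 3 of the list genes described here passed, where 0.44% of all genes tested were higher calls and 0.493% lower. Nothing is read from that count. With encenicline Myct1 (log2 0.57, limma adjusted p = 0.0247) and the vasodilator gene Adm (log2 0.51, limma adjusted p = 0.0368) were higher than with donepezil, and Sox17 (log2 -0.70, limma adjusted p = 0.0259) was lower. Without donepezil 1, encenicline 1 or encenicline 2 all 3 calls ended, without donepezil 2, donepezil 3 or encenicline 5 2 of them, and without donepezil 4, donepezil 5 or encenicline 4 1 of them; the log2 differences then ran from 0.49 to 0.65 for Myct1, 0.48 to 0.58 for Adm and -0.77 to -0.60 for Sox17. TPM scaling and limma voom ended the calls of Myct1 and Adm, scaling without mitochondrial genes that of Myct1, and leaving out donepezil 1 and encenicline 1 all 3. None of them passed for encenicline against saline, where 22 of the 24 pan-endothelial genes were lower, with a median of -0.15.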

How the data were processed

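The deposited table gives FPKM per gene for 15 libraries, grouped by title. The tools named per the submitters' processing notes are featureCounts 1.5.0-p3, HISAT and DESeq 1.8.3, with the build GRCm38; their order and roles are not given in the sources used here. Per the file headers, the authors list gene identifiers, coordinates and lengths. Multiplied by length and a constant per library, the deposited FPKM gave whole reads, within 0.05, for 100.0% of values, 14496147 to 17176086 per library.

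The 13396 genes that reached 0.5 FPKM in 5 or more libraries were tested with limma 3.58.1 in R 4.3.3 on log2(FPKM + 0.5), which understates fold changes of low genes, with a mean-dependent variance prior, all 15 libraries in 1 fit, two-sided, and Benjamini-Hochberg adjustment over all genes tested in each comparison. Relations between members used 100000 permutations within groups (numpy 2.4.6, pandas 2.3.3, Python 3.11.15), two-sided, and figures matplotlib 3.10.9. The scripts were tested on simulated data. The members and gene lists were chosen with earlier results of these data known. Named genes are the members, up to 4 called genes per list, and the 8 genes most like Aplnr by each measure; Furin, Mme, Vegfa, Nrp1, Nrp2, Cd36 and Fabp4 were chosen after their values were seen. 2 list genes are not reported here and are left out of the list counts. Alternatives were pseudocounts of 0.1 and 1, no filter, a filter at 2 FPKM, 3 other scalings, only the 10 libraries compared, limma voom on recovered reads, a replicate block, the label alternatives and each library left out in turn.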

Additional observations from a re-analysis of the deposited data

How the results depend on the processing

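For donepezil against saline Aplnr, Apln, Kdr, Emcn, Cdh5 and Tek stayed lower and Flt1 higher in all 22 alternatives. The number of genes passing moved more. For donepezil against saline, 284 became 119 with no filter, 162 with TPM scaling, 63 with only the 10 libraries compared, 82 without donepezil 1 and encenicline 1, 0 with the groups of the treatment field, and 105 (without donepezil 1) to 409 (without donepezil 4) with single libraries left out. For encenicline against donepezil, 125 became 46 with no filter, 53 with TPM scaling, 27 without donepezil 1 and encenicline 1, 0 with the groups of the treatment field, and 48 (without encenicline 2) to 177 (without donepezil 5). At an unadjusted p under 0.05 the treatment field gave 1323 and 1391 genes. The cause was not tested. For encenicline against saline 0 genes passed in every alternative.

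The split of calls moved with scaling. The 158 higher and 126 lower calls of donepezil against saline were 56 higher and 106 lower under TPM scaling, 97 higher and 117 lower under scaling without mitochondrial genes, and 106 higher and 172 lower under limma voom. The 59 higher and 66 lower calls of encenicline against donepezil were 17 higher and 36 lower, 34 higher and 61 lower, and 59 higher and 95 lower under the same settings. The median log2 difference of all genes for encenicline against saline was -0.135 with TPM scaling and -0.103 with voom.

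Small differences turned sign. For donepezil against saline they ran from -0.09 to 0.05 for Pecam1, -0.13 to 0.01 for Nos3 and -0.2 to 0.03 for Vwf over the 22 alternatives. For encenicline against saline Flt1 became -0.0997 with TPM scaling, -0.0309 without mitochondrial genes, -0.047 with voom and -0.0356 with the treatment field, and Emcn 0.0565 with the treatment field. For encenicline against donepezil Tek became -0.0349, -0.0192, -0.000338 and -0.00475 in the same order, and Cdh5 -0.0444, -0.0286 and -0.0098 in the first 3. With single libraries left out, the encenicline against saline difference of Emcn ran from -0.0521 to 0.0304, and those of encenicline against donepezil from -0.0219 to 0.107 for Tek, -0.0188 to 0.105 for Cdh5, -0.125 to 0.104 for Vwf and -0.185 to 0.00533 for Flt1.

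Same-numbered libraries had correlations of -0.087 to 0.195 after removal of group means, so the replicate numbers were not taken to pair the libraries. With the number as a replicate block 298 genes passed for donepezil against saline (172 higher, 126 lower), 0 for encenicline against saline and 114 for encenicline against donepezil. With 5 libraries a group, members with intervals of about 0.2 to 0.5 log2 units on each side cannot show smaller differences. The interval of Aplnr was wider still, from -2.15 to -0.91 for donepezil against saline.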
